A study of Homo sapiens with 4 samples.

Results

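The genes described are MDC1 and 9 partners that act with it at broken DNA: the histone gene H2AFX, the kinases ATM, ATR, CHEK1 and CHEK2, the ubiquitin ligases RNF8 and RNF168, and TP53BP1 and BRCA1. All 10 were found by symbol among the 25343 genes of each deposited table. MDC1 was chosen because shMAOA lay at least 2-fold below shCon for it in each line, on the log2(CPM + 1) scale, and the partners because of their role. The RNA sequencing covered 4 libraries from 2 human prostate carcinoma lines, 1 library per group. C4-2B ENZR, an enzalutamide-resistant line, was kept in 20 µM of that antiandrogen and carried either a hairpin against the MAOA coding region (shMAOA) or a non-targeting hairpin (shCon). LNCaP, the androgen-responsive line from which C4-2B was derived, carried shMAOA or shCon in medium for which no enzalutamide is listed. Both media held 10% fetal bovine serum, and both hairpins came by lentivirus with antibiotic selection, so the controls were infected and selected cells too. The product of MAOA, monoamine oxidase A, breaks down monoamine transmitters at the mitochondrion. Whether both lines received the same hairpin is not stated, and the library names differ in that place.

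When both strands of DNA break, the MRE11-RAD50-NBN complex brings in the kinase ATM, which phosphorylates the tail of the histone variant H2AX, the product of H2AFX. MDC1 binds that phosphorylated tail, holds more ATM at the break and recruits the ubiquitin ligase RNF8. The marks laid down by RNF8 and RNF168 then draw in 53BP1 and BRCA1, which favour end joining and homologous recombination, while ATR answers single-stranded DNA, and the kinases CHEK1 and CHEK2 pass the signal to the cell cycle. Much of this control acts on proteins, whereas the values below are RNA levels.

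Recovered depth was 23679869 reads (shMAOA) and 23479051 reads (shCon) in C4-2B ENZR, and 52012696 (shMAOA) and 52550452 (shCon) in LNCaP. At these depths a count of 0 allows up to 3 reads, or 0.0529 to 0.122 CPM, and no member came near that limit. The unit throughout is CPM (a gene's count per unit of library size) after the authors' scaling by trimmed mean of M-values (TMM). The 2 tables were scaled separately, so ratios are within a line. MAOA was at 219 CPM with shMAOA against 327 CPM with shCon in C4-2B ENZR (66.8% of control), and in LNCaP at 140 CPM with shMAOA against 446 CPM with shCon (31.3%), so the targeted gene was lower in both libraries labelled as knockdowns. Of the prostate luminal markers HOXB13 and FOLH1 were at 302 to 1013 CPM in all libraries and TMPRSS2 at 75.6 to 1334 CPM, whereas KLK3 was at 6.34 (shMAOA) and 3.72 CPM (shCon) in C4-2B ENZR and in LNCaP at 2716 (shMAOA) and 2391 CPM (shCon). The 10 markers of basal, blood, stromal and endothelial cells lay between 0 and 60.9 CPM, with COL1A1 the highest and CD3E and COL1A2 at 0 in every library. The lane-like suffix in the library labels differs between the lines and is shared within a line, so line and suffix cannot be told apart.

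The upstream sequence of MDC1, the member whose RNA differed most, and of H2AFX, the most abundant member, is shown so that its letters can be read beside the values. Both are the 250 bases before the RefSeq start on GRCh38.p14, from the minus strand and written 5′ to 3′, at chr6:30717282-30717531 for MDC1 and chr11:119095466-119095715 for H2AFX (listed there as H2AX). Capitals mark CCAAT and the cell-cycle element words TTTGAA and TTCGAA, on either strand; none of these words overlap in the 2 windows.
MDC1: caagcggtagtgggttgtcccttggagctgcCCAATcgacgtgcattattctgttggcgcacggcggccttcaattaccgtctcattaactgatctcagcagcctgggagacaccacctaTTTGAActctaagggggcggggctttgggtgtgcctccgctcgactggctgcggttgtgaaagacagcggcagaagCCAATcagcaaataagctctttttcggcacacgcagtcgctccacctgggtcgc
H2AFX: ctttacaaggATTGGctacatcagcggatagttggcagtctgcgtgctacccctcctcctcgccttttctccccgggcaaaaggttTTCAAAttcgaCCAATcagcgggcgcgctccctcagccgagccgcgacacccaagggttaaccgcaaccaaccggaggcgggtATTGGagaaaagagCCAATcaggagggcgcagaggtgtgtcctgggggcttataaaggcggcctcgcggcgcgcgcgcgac
MDC1 held 2 CCAAT words and 1 cell-cycle word, and H2AFX 4 and 1. CCAAT also occurred in at least 1 window of ATM, RNF8, TP53BP1, BRCA1, CHEK1 and CHEK2, but not of ATR or RNF168. Among 35116 promoter windows of this length 11240 held CCAAT and 14.3% a cell-cycle word. Those values are by window, whereas the members were counted by gene, and some members had more than 1 window. ATM had 1 cell-cycle word in 1 of its 2 windows, and the 7 partners other than ATM and H2AFX had no cell-cycle word in any window. No member window held any of the E2F words TTTCCCGC, TTTGGCGC, TTTCGCGC, TTTGCCGC and TTCCCGCC, which 4.76% of all windows held. These are matches of letters, and no binding was measured.

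MDC1, the mediator that links marked chromatin to the ubiquitin ligases, was at 93.8 CPM with shMAOA and 217 CPM with shCon in C4-2B ENZR. In LNCaP it was at 67.0 CPM with shMAOA and 200 CPM with shCon. Each knockdown library lay below its own control, at 43.3% and 33.5% of the control of the same line. In reads, C4-2B ENZR had 2307 with shMAOA and 5363 with shCon, and LNCaP 3273 with shMAOA and 11363 with shCon. The log2 ratio of shMAOA to shCon, computed as log2 of (CPM + 1) over (CPM + 1), was -1.20 in C4-2B ENZR (exact 95% counting interval of the plain ratio -1.28 to -1.14) and -1.57 in LNCaP (-1.64 to -1.52). These ratios chose MDC1 and are given without a test. The intervals cover counting error only, because each group has 1 library. Fewer cells with the transcript and less of it per cell cannot be told apart in such bulk RNA.

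Against the whole tables, 9 of 13810 genes with a mean of at least 1 CPM had a lower ratio than MDC1 in C4-2B ENZR, and 9 of 13787 in LNCaP. Among genes with a mean of at least 50 CPM it was 1 of 4801 and 2 of 4618. In C4-2B ENZR 0.152% of genes were 2-fold lower and in LNCaP 0.254%, which is the criterion that selected MDC1. On that scale BIRC5, which encodes survivin, was the other gene inside the criterion in both lines (log2 -1.04 and -1.92), and CBFB, a core-binding factor subunit, lay just outside it (-0.87 and -0.88). RGPD6 and SFRP1 were also just outside through the pseudocount. By plain CPM RGPD6 was 2.29-fold lower in C4-2B ENZR and 2.57-fold lower in LNCaP, and SFRP1 2.36-fold and 2.27-fold, at levels of at most 7.31 CPM.

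**Figure D1:**
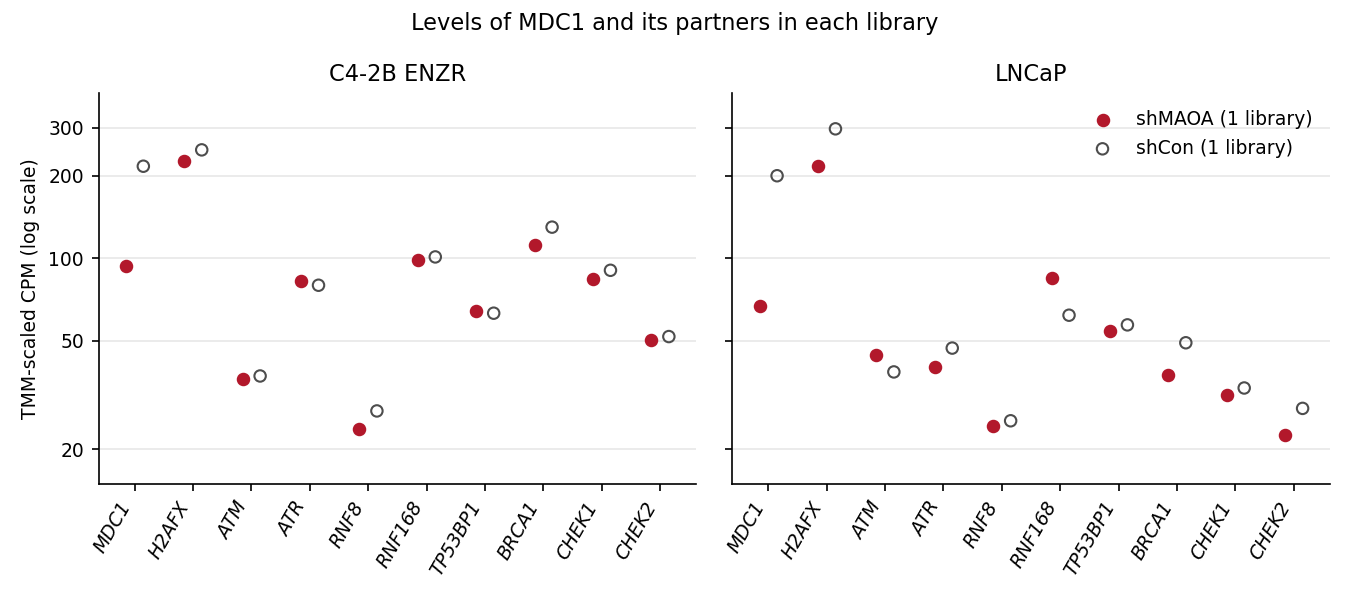
TMM-scaled CPM (log axis) of MDC1 and its 9 partners in each of the 4 libraries; filled points are shMAOA and open points shCon, 1 library each, so there are no error bars. MDC1 was at 93.8 and 67.0 CPM with shMAOA against 217 and 200 CPM with shCon, while the paired points of the partners lie close together.

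None of the 9 partners was 2-fold apart in either line, where 0.29% of genes in C4-2B ENZR and 0.58% in LNCaP were 2-fold higher. Their log2 ratios ran from -0.21 to 0.05 in C4-2B ENZR (median -0.05) and from -0.44 to 0.45 in LNCaP (median -0.08). The medians of all genes tested were 0.00 and 0.11. In limma, fitted on the 2 within-line ratios of all 13114 genes with a mean of at least 1 CPM in both tables, 0 of the 9 passed an adjusted p of 0.05, against 5.71% of genes tested (749). At an unadjusted p under 0.05 the count in limma was 2 of 9, H2AFX and BRCA1, beside 2523 of 13112 genes in all, a like share. It was also 2 in edgeR with either scaling, beside 2547 (deposited scaling) and 2589 (recomputed TMM) of all genes. In DESeq2 it was 2 as well, beside 1458 of all genes, a smaller share than in limma. None of these fits called a partner after adjustment. Among all genes edgeR with recomputed TMM called 2.31% in either direction and 0.976% lower. With the deposited scaling edgeR called 584 higher and 205 lower, and DESeq2 called 132 and 90. The 2 lines are the replicates in the limma fit. They share an origin, and with 276 prior degrees of freedom against 1 residual, the spread behind p comes almost wholly from other genes. Nothing in the labels shows separate cultures within a group.

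That count depended on the scaling. Genes with a mean of at least 10 CPM had a median log2 ratio of -0.01 in C4-2B ENZR but 0.13 in LNCaP, so LNCaP ratios sit slightly high as deposited. Centred on those medians, H2AFX and BRCA1 were called lower in limma, as were 4.14% of genes, with all-gene calls of 578 higher and 543 lower in place of 554 and 195. Both were also called when the libraries were given equal sums, with 351 higher and 653 lower. MDC1 lay at -1.19 and -1.70 after centring.

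H2AFX, whose product carries the break mark, was at 227 CPM with shMAOA and 249 CPM with shCon in C4-2B ENZR. In LNCaP it was at 218 CPM with shMAOA and 297 CPM with shCon. Its RNA was lower in the knockdown library of each line, by less in C4-2B ENZR (log2 -0.13, interval -0.19 to -0.08) than in LNCaP (-0.44, -0.48 to -0.41), a difference that cannot be tested with these libraries. The mean of -0.29 (SE 0.13) had a limma adjusted p of 0.198 as deposited and 0.0144 after centring. The adjusted p from edgeR after recomputing TMM was 0.122. Of 5 other H2A variant genes 0 passed limma, and 0 were under an unadjusted p of 0.05 in limma, edgeR or DESeq2: H2AFY, the most abundant of them in LNCaP, was at -0.11 and -0.01, H2AFZ at 0.10 and 0.12 and H2AFJ at -0.33 and 0.09.

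ATM, the kinase that answers double-strand breaks, was at 36.2 CPM with shMAOA and 37.1 CPM with shCon in C4-2B ENZR. In LNCaP it was at 44.2 CPM with shMAOA and 38.4 CPM with shCon. Its log2 ratio was -0.04 (interval -0.17 to 0.10) and 0.20 (0.11 to 0.29), the LNCaP value being 0.06 after centring. ATR, the kinase that answers single-stranded DNA, was at 82.3 CPM with shMAOA and 79.7 CPM with shCon in C4-2B ENZR. In LNCaP it was at 40.0 CPM with shMAOA and 46.9 CPM with shCon (log2 0.05 and -0.23). The 2 lines' ratios had opposite signs for each kinase. In C4-2B ENZR both intervals included 0 (ATR -0.04 to 0.14), so the order there was not resolved from counting error. With equal sums in each library ATM in LNCaP was at 0.0002. Neither passed limma (mean 0.08, SE 0.13, adjusted p = 0.813 for ATM, and -0.09, SE 0.12, adjusted p = 0.769 for ATR).

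RNF8, the ligase that MDC1 recruits, was at 23.7 CPM with shMAOA and 27.7 CPM with shCon in C4-2B ENZR, and in LNCaP at 24.4 CPM with shMAOA and 25.5 CPM with shCon. RNF168, which extends the ubiquitin marks on H2A, was at 98.3 CPM with shMAOA and 101 CPM with shCon in C4-2B ENZR. In LNCaP it was at 84.7 CPM with shMAOA and 61.9 CPM with shCon. RNF168 had the highest LNCaP ratio of the members (log2 0.45, interval 0.39 to 0.52, and 0.31 after centring) beside -0.04 in C4-2B ENZR. Neither ligase passed limma over both lines (RNF8 mean -0.14, SE 0.14, adjusted p = 0.658; RNF168 mean 0.20, SE 0.12, adjusted p = 0.385).

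TP53BP1, which encodes 53BP1, was at 64.1 CPM with shMAOA and 63.0 CPM with shCon in C4-2B ENZR, and in LNCaP at 54.2 CPM with shMAOA and 57.1 CPM with shCon (log2 0.03 and -0.07). Of its 50-base words 33.4% also occur in other genes, mainly TUBGCP4, which overlaps its exons on the other strand, and the sources used here do not say whether strand was kept in counting. BRCA1, a ligase subunit of homologous recombination, was at 112 CPM with shMAOA and 130 CPM with shCon in C4-2B ENZR. In LNCaP it was at 37.4 CPM with shMAOA and 49.1 CPM with shCon. BRCA1 was lower in both knockdown libraries, at log2 -0.21 (interval -0.29 to -0.14) and -0.38 (-0.48 to -0.31). The mean of -0.30 (SE 0.12) had a limma adjusted p of 0.143 as deposited and 0.0185 after centring, and 0.0888 in edgeR with recomputed TMM.

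CHEK1, the effector kinase of ATR, was at 83.9 CPM with shMAOA and 90.3 CPM with shCon in C4-2B ENZR, and in LNCaP at 31.7 CPM with shMAOA and 33.6 CPM with shCon (log2 -0.11 and -0.08). CHEK2, the effector kinase of ATM, was at 50.1 CPM with shMAOA and 51.7 CPM with shCon in C4-2B ENZR, and in LNCaP at 22.5 CPM with shMAOA and 28.3 CPM with shCon (log2 -0.05 and -0.31). Each was somewhat lower in both knockdown libraries, but the interval included 0 for CHEK1 in LNCaP (-0.18 to 0.01) and for CHEK2 in C4-2B ENZR (-0.16 to 0.07). Neither passed limma (adjusted p = 0.762 for CHEK1 and 0.495 for CHEK2). CHEK2 shares 8.27% of its 50-base words with other genes, pseudogenes of it among them.

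For several partners shMAOA and shCon differed by more than counting error, which is not the spread between cultures. In C4-2B ENZR 4 of 9 had an interval below 0 and 0 above it, where 21.7% and 21.5% of genes did. In LNCaP 5 lay below and 2 above, where 19.2% and 49.1% of genes did. Of the 9 partners 5 were lower in both lines at any size, H2AFX, RNF8, BRCA1, CHEK1 and CHEK2, and 23.2% of genes tested were. Of these, the interval included 0 for RNF8 (-0.17 to 0.05) and CHEK1 (-0.18 to 0.01) in LNCaP and for CHEK2 (-0.16 to 0.07) in C4-2B ENZR.

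**Figure D2:**
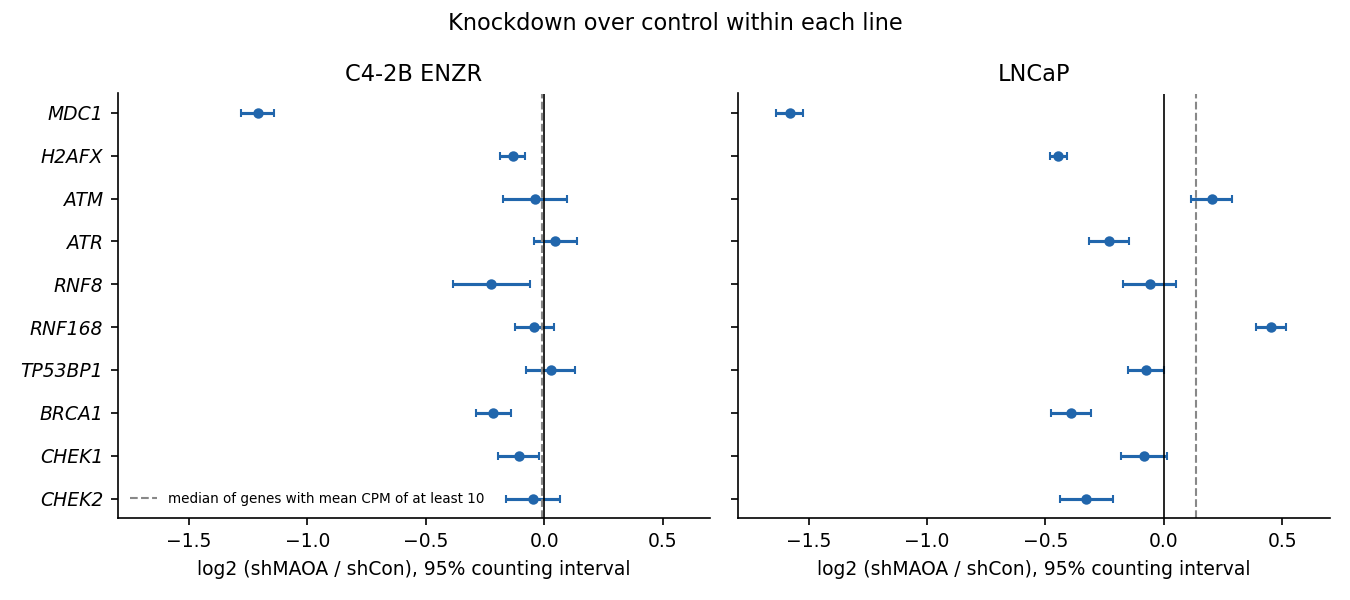
Log2 of shMAOA over shCon for each member (plain CPM ratio) with its exact 95% counting interval; the dashed line is the median of genes with a mean of at least 10 CPM, -0.01 in C4-2B ENZR and 0.13 in LNCaP. MDC1 lies far to the left in both panels, and RNF168 is the highest partner in LNCaP.

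Per kilobase of the longest coding transcript, H2AFX was the highest member in every library and ATM the lowest. H2AFX had 141 CPM per kb with shMAOA and 154 with shCon in C4-2B ENZR, and for LNCaP 135 with shMAOA and 184 with shCon. ATM had 2.75 with shMAOA and 2.82 with shCon in C4-2B ENZR, and for LNCaP 3.36 with shMAOA and 2.92 with shCon. MDC1 took place 6 with shMAOA at 12.4 CPM per kb against place 2 with shCon at 28.6 in C4-2B ENZR. In LNCaP it took place 4 with shMAOA at 8.84 against place 2 with shCon at 26.4. With the length of all annotated exons the places were 5 against 2 and 3 against 2. Neighbours whose counting intervals overlapped were RNF168 and BRCA1 in the C4-2B ENZR control, TP53BP1, BRCA1 and ATR in the LNCaP knockdown, and ATR and TP53BP1 in the LNCaP control.

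Wider repair genes were grouped into lists by function, 85 genes in all, of which 83 were tested. Of these 2 rose and 1 fell in limma, against 4.22% and 1.49% of genes tested. This balance depended on the scaling, with 2 higher and 10 lower after centring and 0 higher and 10 lower with equal sums. After centring, 578 of all 13114 genes tested were called higher and 543 lower (4.14%), and with equal sums 351 and 653. Within the lists, highest and lowest refer to the mean log2 ratio of both lines, and the order within a line can differ. RNF169, which binds the marks made by RNF168, rose (log2 0.30 and 0.57, mean 0.44, SE 0.13, limma adjusted p = 0.0173). FAM175A, the scaffold of the BRCA1-A complex, rose (0.28 and 0.82, mean 0.55, SE 0.16, limma adjusted p = 0.0165), with 15.1 CPM with shMAOA and 12.3 CPM with shCon in C4-2B ENZR, and in LNCaP 11.3 CPM with shMAOA and 6.01 CPM with shCon. CLSPN, which encodes claspin, the adaptor through which ATR activates CHEK1, fell (-0.49 and -0.54, mean -0.51, SE 0.13, limma adjusted p = 0.00400). CLSPN also passed edgeR after recomputing TMM (adjusted p = 0.0156), whereas RNF169 (0.0696) and FAM175A (0.114) did not.

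The lists nearest to MDC1 in the pathway held 2 called genes. The MRN complex, which senses breaks, had 0 of 3 genes called (RAD50 -0.10 and -0.08, NBN -0.18 and 0.07, MRE11A 0.10 and -0.11). Of 13 tested genes of the ubiquitin cascade RNF169 was the 1 called, and UBE2N, the conjugating enzyme that works with RNF8, had the lowest mean (-0.15 and -0.33) and was called lower after centring (limma adjusted p = 0.0453). Of 6 genes of the BRCA1-A complex FAM175A was the 1 called. Of 8 genes that act with 53BP1 none passed limma, and DYNLL1, a light chain that binds 53BP1, was the most abundant and had the lowest mean (-0.30 and -0.29), with the highest mean in FAM35A (-0.15 and 0.24). DYNLL1 was called lower after centring (limma adjusted p = 0.0124). The unadjusted p was under 0.05 for 0 MRN genes and for 1 gene of the last list, in limma, edgeR and DESeq2 alike. Of all 13112 genes tested, it was under 0.05 for 2523 in limma and 1458 in DESeq2. The edgeR counts were 2547 with the deposited scaling and 2589 with recomputed TMM.

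Of 13 genes of ATR activation CLSPN was the 1 called, with a list median of -0.18 in C4-2B ENZR and -0.14 in LNCaP. After centring 4 of its genes were called lower, with 2 of homologous recombination, 2 of Fanconi anaemia and 0 of end joining. Equal sums gave the same numbers. Of all genes tested 543 (4.14%) were called lower after centring and 653 with equal sums. As deposited, homologous recombination had 0 of 17 genes called and medians of -0.11 and -0.18. In both lines 12 of its 17 genes were lower, beside 23.2% of genes tested. RAD54L, the most abundant by the mean over all 4 libraries but in neither line alone, was at 0.02 and -0.07. XRCC2, a recombination factor, had the lowest mean (-0.26 and -0.44), and RAD51B the highest (0.18 and 0.03). At an unadjusted p under 0.05 the count was 3 in limma, edgeR with the deposited scaling and DESeq2, and 9 in edgeR with recomputed TMM. Of all 13112 genes tested, 2523 were under that p in limma and 1458 in DESeq2. In edgeR 2547 genes were with the deposited scaling and 2589 with recomputed TMM. The Fanconi anaemia list, which handles crosslinked DNA, had 0 of 12 called and medians of -0.08 and -0.17. FANCI was the most abundant and had the lowest mean (-0.17 and -0.51), and FANCE had the highest (0.26 and 0.16). Its unadjusted counts were 2 in limma and DESeq2 and 3 and 4 in edgeR with deposited and recomputed scaling. End joining had 0 of 11 called, with medians of -0.10 and 0.17. XRCC6, a subunit of the Ku end-binding complex, was its most abundant gene and had the lowest mean (-0.10 and -0.19), and POLL, a gap-filling polymerase, had the highest (0.03 and 0.54). The unadjusted count was 1 in limma and in edgeR with the deposited scaling and 0 in the other fits.

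**Figure D3:**
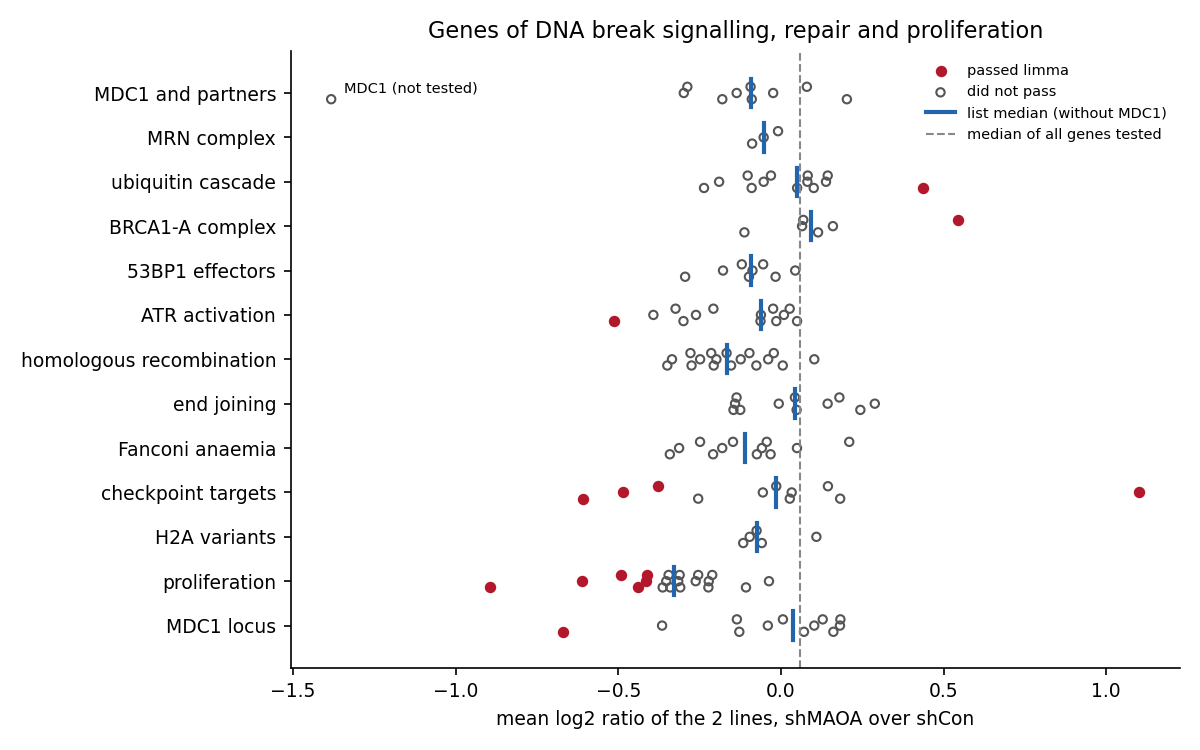
Mean log2 ratio of the 2 lines (x axis) for each tested gene of each list (rows); filled points passed limma, blue bars are list medians without MDC1, and the dashed line is the median of all genes tested, 0.06. MDC1 at -1.38 lies apart from the other points, and filled points are mostly proliferation and checkpoint genes.

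Of 11 targets and regulators of the checkpoint 1 rose in limma, CDKN1A, the gene of the cyclin-kinase inhibitor p21 (mean 1.10, SE 0.13, limma adjusted p = 1.15e-12). It was at 143 CPM with shMAOA and 92.7 CPM with shCon in C4-2B ENZR, and in LNCaP at 443 CPM with shMAOA and 147 CPM with shCon. The mitotic kinase genes PLK1 (mean -0.61, limma adjusted p = 0.000170) and AURKA (-0.38, 0.0496) and the phosphatase gene CDC25C (-0.49, 0.0374) fell. Of all genes tested 4.22% rose and 1.49% fell in limma, and edgeR with recomputed TMM called 2.31% in either direction. After recomputing TMM, edgeR still called CDKN1A and PLK1, but not AURKA (adjusted p = 0.0620) or CDC25C (0.136), and DESeq2 did not call CDKN1A (adjusted p = 0.224).

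Proliferation genes were lower beside the members. Of 20 such genes 6 fell in limma (PCNA, CCNB1, MCM5, MCM4, MCM7 and FEN1) and 0 rose, 15 were under an unadjusted p of 0.05, and 19 were lower in both lines. Of all genes tested 1.49% fell, 2523 of 13112 were under that unadjusted p, and 23.2% were lower in both lines. After centring 15 of the 20 were called lower, and with equal sums 16. The list medians were -0.21 in C4-2B ENZR and -0.44 in LNCaP, beside medians of 0.00 and 0.11 of all genes tested. PCNA, the replication clamp, had the largest fall of this list, with 108 CPM with shMAOA and 183 CPM with shCon in C4-2B ENZR, and in LNCaP 40.7 CPM with shMAOA and 83.8 CPM with shCon. CDK1, which drives mitotic entry, was at -0.04 and -0.04 and did not pass. The part of proliferation in the levels of H2AFX, BRCA1 or MDC1 was not tested.

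**Figure D4:**
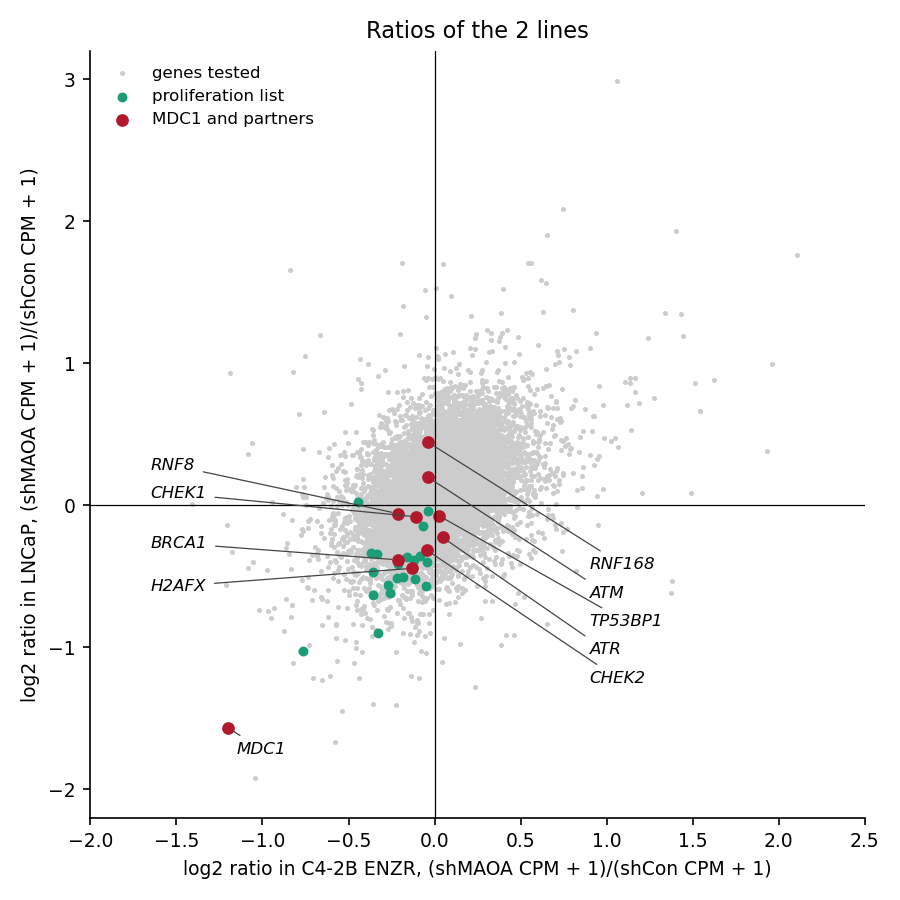
Log2 ratios of shMAOA over shCon in C4-2B ENZR (x axis) and LNCaP (y axis) for the 13114 genes tested (grey, 3 outside the axes), the proliferation list (green) and MDC1 with its partners (red). MDC1 lies at -1.20 and -1.57, while the partners lie within -0.44 and 0.45 in both directions.

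The genes with the pair of ratios nearest to that of MDC1 were ranked by Euclidean distance over the 2 ratios, among 10713 other genes with a mean of at least 5 CPM in both tables. BIRC5 came first (distance 0.39), then S100A10 (0.60), MAOA itself (0.63), FAM110B (0.68), PCNA (0.70), CBFB (0.76), ZNF618 (0.79), DAPK1 (0.85), RSC1A1 (0.85) and ANLN (0.86). No partner was among them, which the ratios given above had already fixed. The ranking uses the same ratios that chose MDC1 and only describes them.

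MDC1 lies in a dense stretch of chromosome 6, and 12 protein-coding neighbours were read beside it. NRM, next to it on one side, was at 14.9 CPM with shMAOA and 17.6 CPM with shCon in C4-2B ENZR, and in LNCaP at 22.3 CPM with shMAOA and 22.8 CPM with shCon (log2 -0.23 and -0.03). TUBB, next to it on the other side and encoding a beta-tubulin, was at 1857 CPM with shMAOA and 2141 CPM with shCon in C4-2B ENZR, and in LNCaP at 1584 CPM with shMAOA and 2280 CPM with shCon (-0.21 and -0.53). Of the 12 neighbours 1 fell in limma, PPP1R10, a nuclear targeting subunit of protein phosphatase 1 (limma adjusted p = 4.12e-05). It was at 150 CPM with shMAOA and 165 CPM with shCon in C4-2B ENZR, and in LNCaP at 58.6 CPM with shMAOA and 136.2 CPM with shCon. After recomputing TMM, edgeR did not call it (adjusted p = 0.0770), nor did DESeq2 (0.700), and 6 other coding genes lie between it and MDC1. After centring 2 neighbours were called lower, PPP1R10 and TUBB, and the limma adjusted p of TUBB was 0.00782 in place of 0.338 as deposited. Of all genes tested, limma called 1.49% lower as deposited and 4.14% after centring. The 9 neighbours other than NRM, TUBB and PPP1R10 ran from -0.22 to 0.16 in C4-2B ENZR and from -0.07 to 0.59 in LNCaP.

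**Figure D5:**
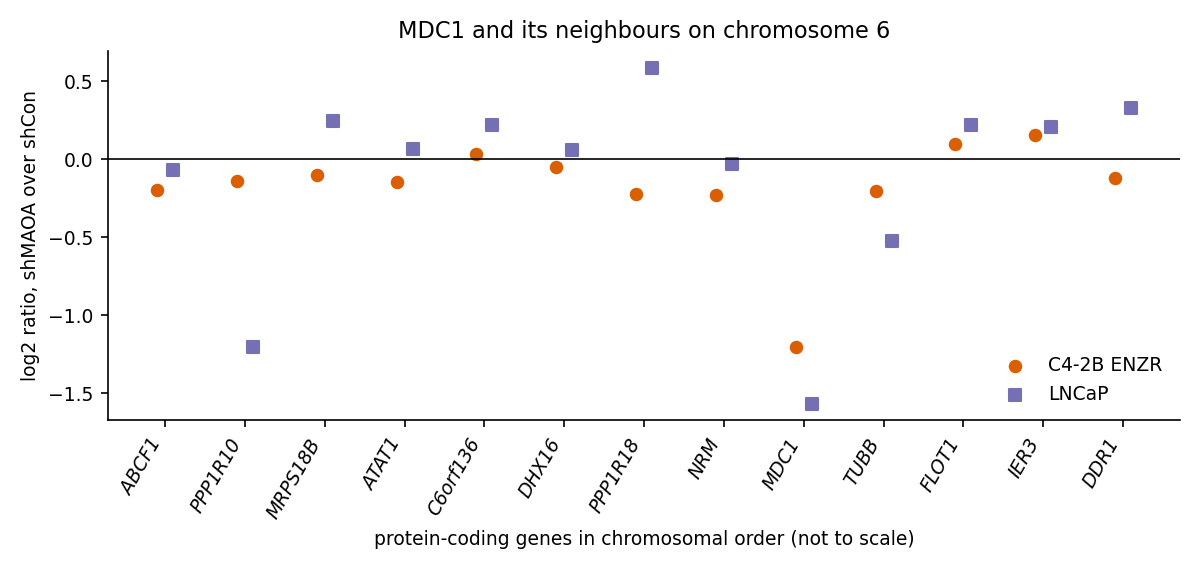
Log2 ratio of shMAOA over shCon (y axis) for MDC1 and 12 neighbouring protein-coding genes in chromosomal order (x axis, not to scale), with circles for C4-2B ENZR and squares for LNCaP. MDC1 is low in both lines, at -1.20 and -1.57, and PPP1R10 is at -1.20 in LNCaP beside -0.14 in C4-2B ENZR.

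No source used here gives the hairpin sequences, so a direct match of the hairpin to MDC1 was not tested. An effect of the hairpin on MDC1 through a short or inexact match was not tested either, and the lengths below do not address it. What could be measured is the sequence that MDC1 shares with the 1581 bases of the MAOA coding region, from GENCODE transcripts. The longest exact stretch in the sense direction was 13 bases, agcttccagcaga, and 33.2% of 12174 genes searched share a stretch at least as long. In the antisense direction it was 12 bases, a length that 55.3% of genes reach. MAOB, the paralogue of MAOA, shares 41 bases in the sense direction but is not among the 12174 genes. Those were drawn from the genes with a mean of at least 1 CPM in both tables, and none of them shared 21 or more. Of the 50-base words of MDC1 7.44% also occur in another gene, and that gene is its antisense transcript MDC1-AS1, which overlaps 8.69% of its exon bases and was not analysed here.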

How the data were processed

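The libraries were sequenced as single reads of 50 nt from total RNA, per the labels' protocols. Per the submitters' processing notes the authors used Bowtie2 2.1.0, RSEM 1.2.15, edgeR and the hg19 build; no source used here gives the annotation or filters. The authors deposited CPM scaled by TMM in 1 table per line. The deposited LNCaP values were read as a signal on the CPM scale, because 1 column sums to 1064500. Values in all columns were whole multiples of 1 read within 0.01 read (100%), so counts were recovered. The tables share 25341 symbols.

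Ratios used a pseudocount of 1 CPM. Tests used limma 3.58.1 in R 4.3.3 with a trended prior and Benjamini-Hochberg adjustment over all genes, and edgeR 4.0.16 (quasi-likelihood, line as a term) and DESeq2 1.42.0 on the recovered counts as alternatives. Intervals are exact binomial (Clopper-Pearson), conditional on both libraries' reads, or exact Poisson for levels. Of these, limma and edgeR with recomputed TMM were also run on simulated counts with an assumed spread, and DESeq2 was not. Lengths, 50-base words and exon overlaps came from GENCODE transcripts (GRCh38, not the authors' build), promoters from RefSeq.

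The members and lists were chosen with earlier results of these data known. Named genes were all members, called list genes or else the most abundant and the highest and lowest of a list, the neighbours of MDC1, and the 10 genes nearest to it. NBN, UBE2N and CDK1 fall outside that rule and were named after their values were seen. Some values are not reported here. Other pseudocounts, filters, scalings and tools were compared.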

Additional observations from a re-analysis of the deposited data

Results flagged for a closer look

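Of the 10 members 4 had ratios on opposite sides of 0 in the 2 lines, which 1 library per group does not allow to be tested. RNF168 was at log2 -0.0403 in C4-2B ENZR and 0.4457 in LNCaP, and ATM at -0.0373 and 0.1966. ATR was at 0.0465 and -0.2259, and TP53BP1 at 0.0260 and -0.0739. In C4-2B ENZR the counting intervals of all 4 included 0. In LNCaP none of the 4 did as deposited, with the TP53BP1 interval ending at -0.0007. The intervals were not recomputed after centring. After centring, the LNCaP ratios were 0.31 for RNF168, 0.06 for ATM, -0.36 for ATR and -0.21 for TP53BP1.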

How the results depend on the processing

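Of 80 values for the members' ratios within a line under other choices 60 stayed within counting error and 20 moved beyond it. Those 20 were all LNCaP ratios, after centring or with the same sum in each library. MDC1 in LNCaP moved to -1.70 and -1.76 in place of -1.57. Of 90 values for the partners' means under other choices 85 kept their direction and their side of the threshold. The exceptions were H2AFX and BRCA1, called after centring (-0.35 and -0.36) and with the same sum in each library (-0.40 and -0.41), and ATM, which turned to -0.0285 with the same sum. Centring gave 2 partners lower in place of 0, 10 repair genes lower in place of 1, 15 proliferation genes lower in place of 6, 543 genes lower in all in place of 195, and in LNCaP 48 genes 2-fold higher and 58 lower in place of 80 and 35. The same sum gave 2, 10, 16 and 653 lower, 0 repair genes and 351 genes higher in place of 2 and 554, and 41 and 67 genes 2-fold apart in LNCaP. edgeR with recomputed TMM called 175 genes higher and 128 lower, DESeq2 132 and 90, and both 0 repair genes higher. Without a trended prior limma called 326 genes higher, 1 repair gene higher and 3 proliferation genes lower. Without a filter on low values it called 14 higher and 6 lower, 0 repair genes either way and 1 proliferation gene. A mean of at least 5 CPM left 26 genes 2-fold higher and 9 lower in C4-2B ENZR, in place of 40 and 21, and 19 lower in LNCaP. A pseudocount of 0.1 gave 90 higher and 45 lower in C4-2B ENZR, and for LNCaP 163 higher and 76 lower; one of 5 gave 18 and 6, and for LNCaP 40 and 6. The stricter filter also left fewer genes to count, and the cause of these changes was not tested. The tests pair shMAOA with shCon within a line, and no further replicate block could be fitted, because the labels carry no replicate numbers and each group has 1 library. With that depth of replication a partner's change within 1 line cannot be told from variation between cultures.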
